A study of Homo sapiens with 4 samples.

Results

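Histone lysine methylation writers and erasers are the enzymes that add methyl groups to lysines of histone tails, and to some other proteins, and those that take them off. The genes described here were taken by symbol from a list of 46, made of 19 demethylases (the KDM and JMJD genes and PHF8) and 27 methyltransferases. The classes go by symbol. They include JMJD6, KDM8, SETD3 and SETD5, described below, whose activity on histone lysines is debated or lies elsewhere. Short-oligonucleotide arrays measured them in U937, an established human line from a lymphoma of monocytic character. The cells had received shikonin, a naphthoquinone from the roots of gromwell, at 100 nM for 3 h (2 arrays), or the solvent dimethyl sulfoxide, DMSO (2 arrays). The labels name no time for the DMSO cells, nor do they state separate cultures. The p-values therefore rest on variation among these samples alone, and that variation may be technical. The design asks how transcript levels after shikonin compare with those after solvent.

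Of the 46 genes, 45 had at least 1 probe set naming that gene alone, and ASH1L, a methyltransferase of H3K36, was not analysed here. The 45 genes had 155 such probe sets. Of these, 130 lay above the filter on dim signals and were tested, at least 1 for each of the 45 genes. Each gene is represented by its brightest probe set, chosen by the mean log2 signal over all 4 arrays without regard to treatment. The genes were listed with earlier results of these arrays known, so their counts and medians describe the list and test nothing about it. All 13554 genes tested gave a median log2 change of 0.00 between shikonin and DMSO.

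In cells, the demethylases of the JmjC group are oxygenases that need iron, oxygen and 2-oxoglutarate, whereas KDM1A and KDM1B use a flavin. Most lysine methyltransferases share a catalytic SET domain and take the methyl group from S-adenosylmethionine; DOT1L lacks this domain. Methylation of H3K4, H3K36 and H3K79 is found mainly at active genes, and that of H3K9 and H3K27 mainly at silent ones. In myeloid cells KDM6B is known as a gene switched on by inflammatory signals, and rearranged KMT2A, which recruits DOT1L, drives a class of leukaemias.

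The log2 change was below 0 for 14 of 19 demethylases and for 11 of 26 tested methyltransferases. At a limma adjusted p under 0.05, which defines a call throughout, 6 of 19 demethylases fell and 0 rose, while 3 of 26 methyltransferases fell and 2 rose. Over all genes tested, 6.65% were called lower and 5.05% higher. Unadjusted, p was under 0.05 for 13 of 19 demethylases (68.4%) and 9 of 26 methyltransferases (34.6%), and for 28.0% of all genes tested. The median log2 change was -0.25 for demethylases and 0.04 for methyltransferases; with the mean over each gene's probe sets, the demethylase median was -0.14. By array, the median deviation of the demethylases from their DMSO means was -0.27 and -0.22 in the shikonin arrays, against 0.02 and -0.02 in the DMSO arrays. For methyltransferases it was 0.05 and -0.02 in the shikonin arrays, against 0.00 and -0.00 in the DMSO arrays. The DMSO values are equal and opposite by construction, since the deviations were taken from the mean of those same arrays. The difference between the classes was not tested, since the genes had been chosen with results known. Its size in calls moved with the processing. Demethylases and methyltransferases called lower numbered 3 and 2 without a filter on dim signals, and 4 and 2 with quantile normalization. They numbered 2 and 3 without probe sets ending in _x_at or _s_at (37 genes of the list left), but 6 and 2 with the mean over probe sets. Of all genes, 607, 844, 657 and 762 were called lower in these settings, in place of 901. Brighter genes were called more often. With all tested genes in 4 equal classes by brightness, 13 of the 45 genes lay in the brightest class, 25 in the next and 7 in the 2 dimmest. Of all genes in the brightest class 8.91% were called lower and 10.7% higher, and in the next class 11.6% lower and 6.70% higher. In the dimmer classes 5.73% and 0.384% were called lower, and 2.27% and 0.502% higher.

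Leaving out an array ended some calls and added others. The new ones were PHF8, higher without DMSO 1, and SETD1B and SETD2, higher, and EHMT2, lower, without shikonin 2. The counts that follow mix kept and new calls. The genes called lower numbered 5 in the fit lacking shikonin 1, 6 in that lacking shikonin 2, and 5 in each of those lacking DMSO 1 or DMSO 2, in place of 9. Those called higher numbered 0 lacking shikonin 1, 3 lacking shikonin 2, 1 lacking DMSO 1 and 2 lacking DMSO 2, in place of 2. Calls over all genes dropped too, to between 598 and 668 lower in place of 901 and between 295 and 456 higher in place of 685. KDM7A, KDM5B, KMT2E and SETDB2 stayed called in each of these 4 fits. With a single prior for the variance of all probe sets, limma called 0 genes of the list and 0 of all 13554 genes. The smallest adjusted p in the list was 0.153, and 14 of its genes had an unadjusted p under 0.05.

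Both arrays of the shikonin group lay below both DMSO arrays for 12 of 19 demethylases and above them for 3. Among methyltransferases the numbers were 7 below and 8 above of 26. Over all genes tested, 27.3% lay wholly below and 28.2% wholly above.

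**Figure D1:**
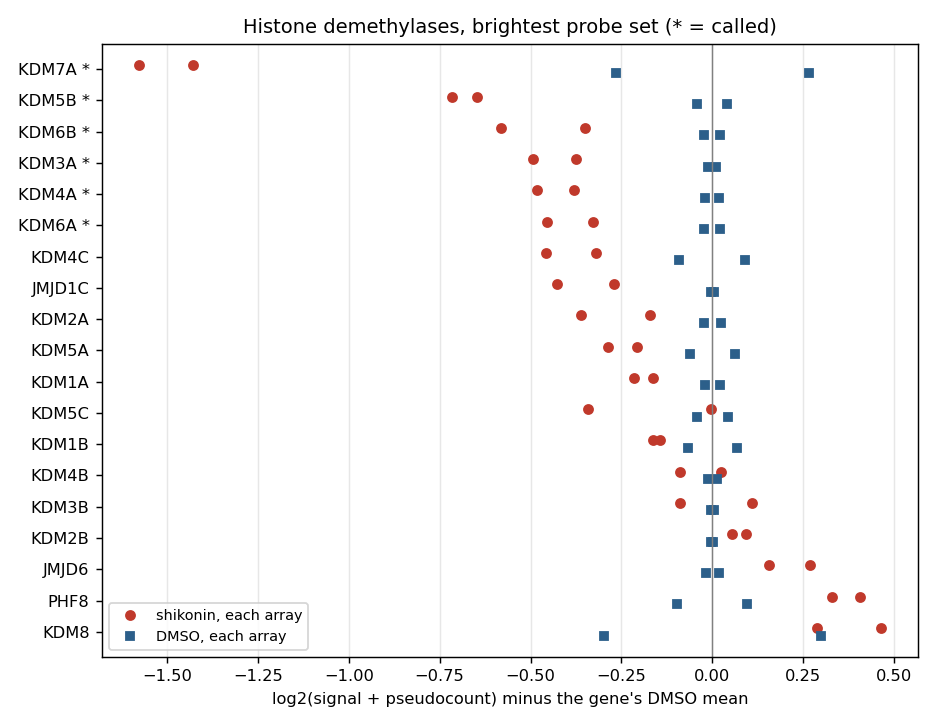
Signals of the 19 demethylases on each array, as log2(signal + pseudocount) minus the gene's DMSO mean (x axis), with genes down the page from the lowest to the highest change; red circles are the 2 shikonin arrays, blue squares the 2 DMSO arrays, and stars mark the 6 called genes. KDM7A stands farthest to the left with a log2 change of -1.50, and its 2 DMSO arrays lie farther apart than those of the other called genes.

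The stretches just before the start sites of 5 genes are shown here, so that their base composition can be seen beside the values. They are the 4 called in every fit that left out an array, and KDM6B, which fell on 4 of its 5 probe sets. They come from RefSeq on GRCh38.p14, as the 250 bases before an annotated start, 5′ to 3′ on the gene's strand. Capitals mark GGGCGG, the core bound by SP-type factors, and ACGTG, the core bound by HIF1A and related factors, on either strand; neighbouring matches run together. KDM6B has a second annotated start, and which starts U937 cells use was not measured. The stretch before that start, chr17:7839667-7839916, is not printed; its GC content was 50.4% and it held GGGCGG 0 times.
KDM7A (chr7:140176984-140177233, minus strand): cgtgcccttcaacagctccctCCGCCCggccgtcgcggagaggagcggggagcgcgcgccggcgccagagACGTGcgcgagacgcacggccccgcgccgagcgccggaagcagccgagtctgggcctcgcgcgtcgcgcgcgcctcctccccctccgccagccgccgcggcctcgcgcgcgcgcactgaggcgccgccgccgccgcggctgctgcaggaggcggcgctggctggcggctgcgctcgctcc
KDM5B (chr1:202808422-202808671, minus strand): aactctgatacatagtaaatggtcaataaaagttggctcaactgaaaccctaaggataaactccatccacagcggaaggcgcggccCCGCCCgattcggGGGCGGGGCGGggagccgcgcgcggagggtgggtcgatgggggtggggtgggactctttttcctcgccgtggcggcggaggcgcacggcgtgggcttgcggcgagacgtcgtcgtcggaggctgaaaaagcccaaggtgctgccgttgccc
KDM6B (chr17:7833967-7834216, plus strand): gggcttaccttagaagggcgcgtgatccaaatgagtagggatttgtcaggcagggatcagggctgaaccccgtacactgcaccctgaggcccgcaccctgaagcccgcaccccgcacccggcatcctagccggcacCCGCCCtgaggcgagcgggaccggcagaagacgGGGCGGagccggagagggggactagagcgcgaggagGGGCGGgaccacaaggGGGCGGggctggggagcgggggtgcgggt
KMT2E (chr7:105013955-105014204, plus strand): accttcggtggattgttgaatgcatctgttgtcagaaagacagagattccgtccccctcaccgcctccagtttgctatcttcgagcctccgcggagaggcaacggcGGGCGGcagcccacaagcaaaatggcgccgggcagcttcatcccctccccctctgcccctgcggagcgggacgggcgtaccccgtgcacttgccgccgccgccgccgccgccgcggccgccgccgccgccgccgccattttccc
SETDB2 (chr13:49444024-49444273, plus strand): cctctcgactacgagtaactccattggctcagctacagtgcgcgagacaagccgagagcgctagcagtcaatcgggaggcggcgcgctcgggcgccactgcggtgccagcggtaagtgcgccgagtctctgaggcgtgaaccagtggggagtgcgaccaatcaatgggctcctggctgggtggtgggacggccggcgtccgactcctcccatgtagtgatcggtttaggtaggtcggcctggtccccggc

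GC content was 81.6% in the stretch of KDM7A, 64.0% in that of KDM5B, 70.4% in the printed stretch of KDM6B, 68.8% in that of KMT2E and 65.2% in that of SETDB2. GGGCGG occurred 4 times in the printed KDM6B stretch, 3 times in that of KDM5B, once each in those of KDM7A and KMT2E and not in that of SETDB2, whose window reaching past the start did hold it. ACGTG was found in the KDM7A stretch alone. For 42 genes of the list RefSeq gave 60 windows of 300 bases, reaching 50 bases past the start. Their median GC content was 67.3%, against 58.7% for all 35116 windows. GGGCGG lay in 76.7% of the 60 windows and 45.0% of all windows, and TATAAA in 0 and 11.5%. ACGTG lay in 25.0% of the 60 and 21.4% of all; CACGTG, which holds it, in 15.0% and 7.26%. A match of letters is a description of the window and does not show binding.

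Among the H3K4 demethylases, KDM5B, which removes di- and trimethylation, fell. Its signal was 2064 and 1968 in the shikonin arrays, against 3334 and 3148 in the DMSO arrays. Both shikonin arrays lay below both DMSO arrays, and the distance was wide against the spread within the groups (2016 ± 67.3 after shikonin and 3241 ± 131 in DMSO; SD, n = 2 each). The log2 change was -0.68 (SE 0.069), 1.61-fold lower, with a limma adjusted p of 5.41e-04. All 3 other tested probe sets were lower as well, at -0.73, -0.72 and -0.72. The first 2 of these passed, and the dim 4th probe set did not (adjusted p 0.192). The bright probe sets end in _s_at or _x_at, a suffix for sequences shared between transcripts, and with such probe sets left out KDM5B was not called.

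The other H3K4 demethylases did not pass. KDM5A, the paralogue that binds the retinoblastoma protein, had signals of 921 and 974 in the shikonin arrays and 1176 and 1078 in the DMSO arrays. Its arrays did not overlap, with a log2 change of -0.25 (adjusted p 0.129), but 3 of its 4 other probe sets were above 0. The X-linked paralogue KDM5C was at -0.17, with overlapping arrays. KDM1A, or LSD1, which works in the CoREST repressor complex, was at -0.19 (adjusted p 0.103), and its paralogue KDM1B at -0.15.

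KDM7A, which removes methyl groups from H3K9 and H3K27 and carries a PHD finger that reads H3K4 methylation, had the largest change of the list. Its signal was 191 and 213 in the shikonin arrays, against 712 and 489 in the DMSO arrays. The shikonin arrays lay close together and well below the DMSO arrays, which were far apart (202 ± 15.2 after shikonin, 601 ± 158 in DMSO; SD, n = 2 each). The gene was 2.84-fold lower (log2 change -1.50, SE 0.19, adjusted p 0.00161). Its other tested probe set fell by 1.23 on the log2 scale and passed too (adjusted p 0.0103). Without DMSO 1, the higher of the DMSO arrays, the change was -1.24 (adjusted p 0.00595). KDM7A-DT, a non-coding RNA that RefSeq lists just upstream in the opposite direction, was at -0.02 and did not pass.

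PHF8, the closest paralogue of KDM7A in the list, went the other way without passing. Its signal was 966 and 916 in the shikonin arrays, against 778 and 679 in the DMSO arrays. Both shikonin arrays exceeded both DMSO arrays, with a log2 change of 0.37 (adjusted p 0.0573). It was called higher without DMSO 1 (adjusted p 0.0481), and also with quantile normalization (0.0453), a stricter filter on dim signals (0.0400), the mean over probe sets of every gene (0.0456) or the replicate number as a block (0.0227). Over all alternatives its adjusted p ran from 0.0227 to 0.253.

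Of the remaining H3K9 demethylases, KDM3A and KDM4A fell and 4 did not pass. KDM3A, which is known as a gene induced by hypoxia, had signals of 1189 and 1095 in the shikonin arrays, against 1556 and 1532 in the DMSO arrays. The groups did not overlap; the log2 change was -0.43 (SE 0.082, adjusted p 0.0125), 1.35-fold lower. KDM3A has 1 tested probe set, and without shikonin 2 the call was lost (adjusted p 0.0588).

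KDM4A, which acts on H3K9 and H3K36, had signals of 533 and 572 in the shikonin arrays, against 758 and 738 in the DMSO arrays. The shikonin arrays were the lower pair (log2 change -0.43, SE 0.10, adjusted p 0.0328). Its other probe set was at -0.29 and did not pass. The call was lost without any 1 of the arrays, at adjusted p of 0.128 and 0.0596 without shikonin 1 or 2 and 0.115 and 0.0858 without DMSO 1 or 2.

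Its paralogue KDM4C had signals of 311 and 282 in the shikonin arrays, against 417 and 366 in the DMSO arrays. The arrays did not overlap, but the change of -0.39 did not pass (adjusted p 0.133). KDM4B, the brightest probe set of which had overlapping arrays, was at -0.03. Its 6 other tested probe sets were below 0 too, without passing, and the mean over its probe sets was at -0.21 (adjusted p 0.326). KDM3B was at 0.01. JMJD1C, a relative of KDM3A, was at -0.35 (adjusted p 0.0879). Of its 3 other probe sets, 2 were lower and 1 was higher by 0.78 (adjusted p 0.0602), so its probe sets disagreed.

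KDM6B and KDM6A, whose known substrate is H3K27, were called lower on their brightest probe sets, KDM6B with more support from its other probe sets than KDM6A. KDM6B, also called JMJD3, had signals of 754 and 886 in the shikonin arrays, against 1115 and 1149 in the DMSO arrays. The shikonin arrays were lower and farther apart (log2 change -0.47, SE 0.10, adjusted p 0.0231). That call was lost without shikonin 1, DMSO 1 or DMSO 2 (adjusted p 0.105, 0.0531 and 0.0732).

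Of the 4 other probe sets of KDM6B, the 2 brighter ones showed larger changes. The next in brightness gave 375 and 430 in the shikonin arrays, against 812 and 708 in the DMSO arrays, a log2 change of -0.90 (adjusted p 0.00292). The 3rd gave 157 and 115 in the shikonin arrays, against 404 and 406 in the DMSO arrays, a log2 change of -1.52 (adjusted p 0.00172). On both, the shikonin arrays lay below the DMSO arrays without overlap. Of the 2 dimmest, 1 gave 8.78 and 85.5 in the shikonin arrays, against 181 and 208 in the DMSO arrays, and did not pass (adjusted p 0.0547). The other gave 17.9 and 15.7 in the shikonin arrays, against 101 and 143 in the DMSO arrays, and passed (adjusted p 0.0103). The 40th percentile of the shikonin arrays was 35.1 and 37.4, so 3 of these 4 shikonin signals lay below it and no size is given for either probe set. All 5 probe sets were lower after shikonin and 4 passed, and over the 3 brighter ones the size ran from 1.38-fold to 2.87-fold. What sets the size apart between probe sets was not tested.

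KDM6A, or UTX, the X-linked paralogue, had signals of 567 and 620 in the shikonin arrays, against 792 and 768 in the DMSO arrays. The groups did not overlap on this probe set (log2 change -0.39, SE 0.10, adjusted p 0.0464). Its 3 other probe sets were at -0.28, 0.07 and 0.79, and none passed. The call was lost without any 1 of the arrays, at adjusted p of 0.179 and 0.0690 without shikonin 1 or 2 and 0.15 and 0.107 without DMSO 1 or 2. The change of the mean over its 4 probe sets was 0.05. That mean includes the dim probe set at 0.79, which had 40.8 and 50.6 in the shikonin arrays, against 49.9 and 7.14 in the DMSO arrays.

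For KDM2A, which removes methylation of H3K36, the brightest probe set did not pass but the others did. The brightest gave 1364 and 1194 in the shikonin arrays, against 1563 and 1512 in the DMSO arrays (log2 change -0.27, adjusted p 0.0968). The next gave 706 and 701 in the shikonin arrays, against 1053 and 1178 in the DMSO arrays (log2 change -0.66, adjusted p 0.00388). The 3rd was at -0.57 (adjusted p 0.0209). On all 3 probe sets the shikonin arrays lay below the DMSO arrays.

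The paralogue KDM2B, a subunit of a Polycomb complex, was at 0.07 (adjusted p 0.504). KDM8, a JmjC protein with debated activity on H3K36, had signals of 208 and 236 in the shikonin arrays, against 135 and 210 in the DMSO arrays. These overlapped, and the change of 0.38 did not pass (adjusted p 0.367). JMJD6, a JmjC oxygenase that hydroxylates lysines of splicing factors, was at 0.21 (adjusted p 0.123).

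**Figure D2:**
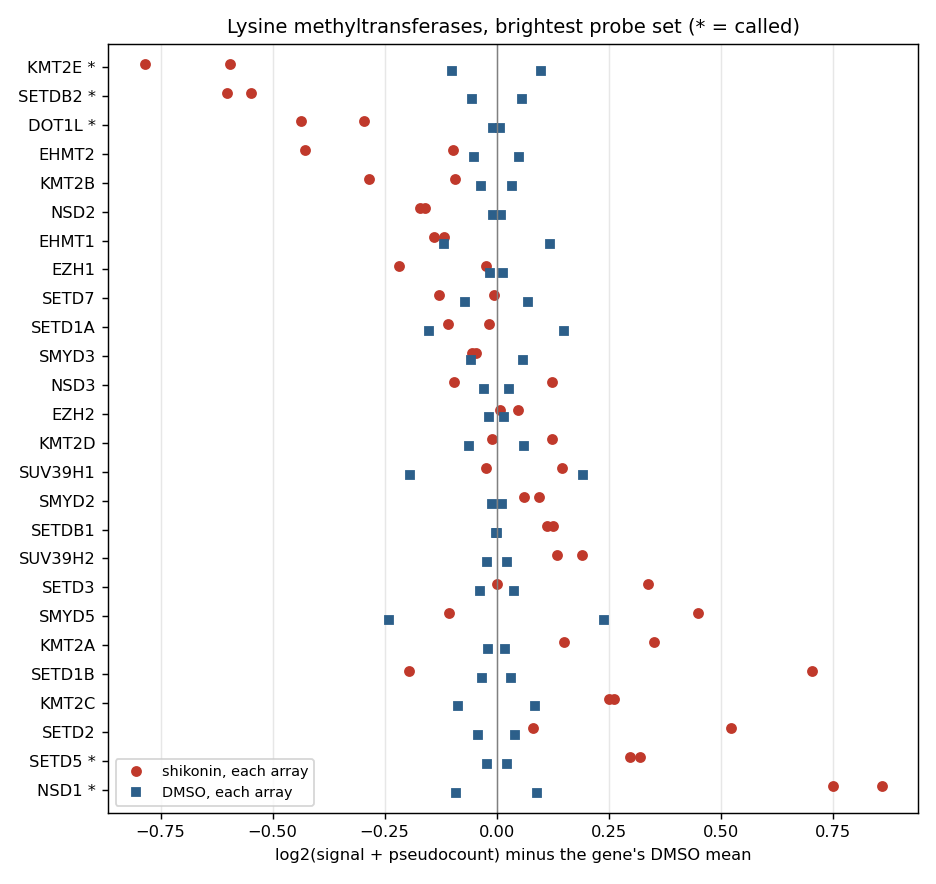
Signals of the 26 tested methyltransferases on each array, as log2(signal + pseudocount) minus the gene's DMSO mean (x axis), with genes down the page from the lowest to the highest change; red circles are the 2 shikonin arrays, blue squares the 2 DMSO arrays, and stars mark the 5 called genes. KMT2E, SETDB2 and DOT1L are called at the low end, SETD5 and NSD1 at the high end, and the shikonin arrays of SETD1B and SETD2 are far apart.

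In the family of H3K4 methyltransferases, KMT2E fell and the other 7 genes did not pass. KMT2E, or MLL5, is a family member with little catalytic activity of its own. Its signal was 934 and 818 in the shikonin arrays, against 1517 and 1322 in the DMSO arrays. Both shikonin arrays lay below both DMSO arrays (876 ± 81.7 after shikonin, 1420 ± 138 in DMSO; SD, n = 2 each). The gene was 1.61-fold lower (log2 change -0.69, SE 0.10, adjusted p 0.00429), and both other probe sets passed at -0.57 and -0.55. KMT2E-AS1, a neighbouring antisense RNA in RefSeq, was at 0.74 without passing (adjusted p 0.332).

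The large KMT2 enzymes did not pass in either direction. KMT2C, an enhancer H3K4 methyltransferase, had signals of 1267 and 1257 in the shikonin arrays, against 1121 and 994 in the DMSO arrays. Both shikonin arrays were higher than both DMSO arrays, at 0.26 (adjusted p 0.115). KMT2A was at 0.25 (adjusted p 0.235), with its 7 other probe sets between -0.38 and 0.21, and its paralogues KMT2B and KMT2D were at -0.19 and 0.06. SETD1A, a catalytic subunit of the complex that lays down most H3K4 trimethylation, was at -0.06 and SETD7, which monomethylates H3K4, at -0.07. SETD1B had 2168 and 1158 in the shikonin arrays, against 1358 and 1297 in the DMSO arrays. Its shikonin arrays lay on both sides of the DMSO arrays, and without shikonin 2 it was called at 0.70 (adjusted p 0.00239).

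Of 6 H3K9 methyltransferases, SETDB2 fell. Its signal was 1825 and 1895 in the shikonin arrays, against 2669 and 2884 in the DMSO arrays. The distance between the pairs was wide against their spread (1860 ± 49.8 after shikonin, 2776 ± 152 in DMSO; SD, n = 2 each). The gene was 1.49-fold lower (log2 change -0.57, SE 0.072, adjusted p 0.00176). Of its 5 other probe sets, 3 passed at -0.64, -0.70 and -0.63, and 2 did not, at 0.35 and -0.09. RefSeq lists a read-through transcript of SETDB2 with its neighbour PHF11, and the files do not say which transcripts each probe set reads.

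The other H3K9 methyltransferases did not pass. SETDB1, the paralogue that silences repeats, was at 0.12, and SUV39H1 and SUV39H2, which act on heterochromatin, were at 0.06 and 0.16. EHMT2, or G9a, had signals of 2101 and 2643 in the shikonin arrays, against 2733 and 2927 in the DMSO arrays. These did not overlap, though the shikonin arrays were far apart (-0.26, adjusted p 0.155), and without shikonin 2 the gene was called at -0.43 (adjusted p 0.0210). Its partner EHMT1 was at -0.13.

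The H3K27 methyltransferases of Polycomb complex PRC2 gave no call. EZH2 had signals of 1217 and 1252 in the shikonin arrays, against 1197 and 1226 in the DMSO arrays. These overlapped, with a log2 change of 0.03 (SE 0.080, adjusted p 0.879). EZH1, its paralogue in resting cells, was at -0.12 (adjusted p 0.581).

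Among H3K36 methyltransferases, NSD1 rose and had the largest increase of the list. Its signal was 364 and 337 in the shikonin arrays, against 184 and 210 in the DMSO arrays. The shikonin arrays were the higher pair without overlap (351 ± 19.4 after shikonin, 197 ± 18.3 in DMSO; SD, n = 2 each). The gene was 1.75-fold higher (log2 change 0.80, SE 0.16, adjusted p 0.0158). A second probe set passed at 0.93, and the other 2 were at 0.07 and 0.17 without passing, so the probe sets disagreed. The call was lost without shikonin 1 or DMSO 1 (adjusted p 0.0788 and 0.0562).

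The paralogues of NSD1 did not pass: NSD2, whose overexpression marks a group of myelomas, was at -0.17 and NSD3 at 0.01. SETD2, the enzyme that trimethylates H3K36, had signals of 1843 and 1354 in the shikonin arrays, against 1318 and 1244 in the DMSO arrays. The shikonin arrays were higher but far apart (0.30, adjusted p 0.193), and without shikonin 2 the gene was called at 0.52 (adjusted p 0.0142).

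The remaining methyltransferases held 1 call in each direction. DOT1L, the methyltransferase of H3K79, had signals of 729 and 803 in the shikonin arrays, against 995 and 985 in the DMSO arrays. The arrays did not overlap (log2 change -0.37, SE 0.095, adjusted p 0.0438), but the other probe set was at 0.21. The call was lost without any 1 of the arrays, at adjusted p of 0.180 and 0.0568 without shikonin 1 or 2 and 0.127 and 0.111 without DMSO 1 or 2.

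SETD5, a SET-domain protein whose activity on histones is debated, had signals of 3663 and 3605 in the shikonin arrays, against 2888 and 2979 in the DMSO arrays. The shikonin arrays were the higher pair (log2 change 0.31, SE 0.061, adjusted p 0.0158). All 4 other probe sets had the same sign, from 0.02 to 0.46, and none passed. The call was lost without shikonin 1, shikonin 2 or DMSO 1 (adjusted p 0.0748, 0.0550 and 0.0606). SETD3, a histidine methyltransferase of actin, was at 0.17. The SMYD genes were at 0.08 for SMYD2, which also methylates p53, -0.05 for SMYD3 and 0.17 for SMYD5, and none passed.

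**Figure D3:**
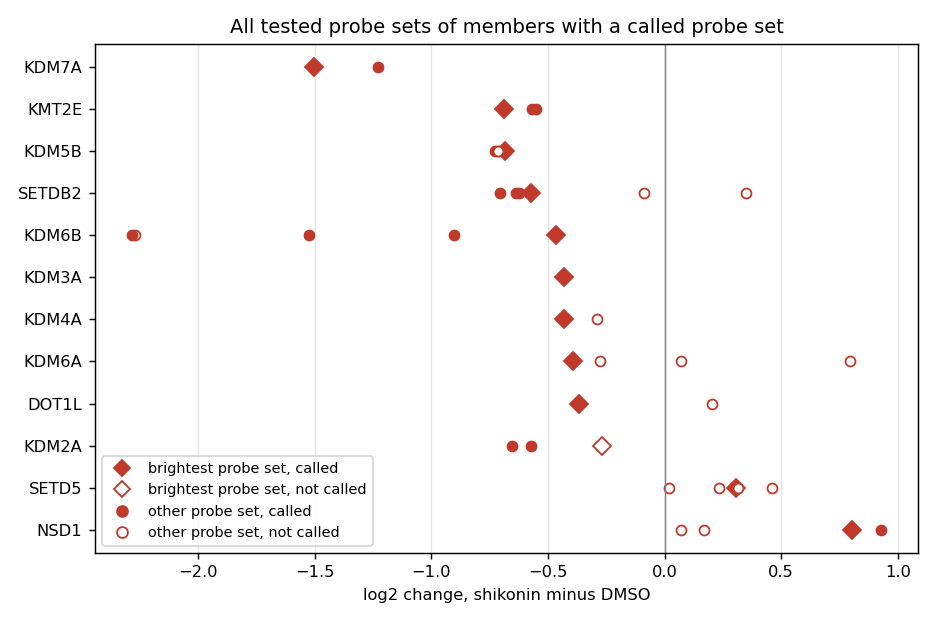
Log2 change (shikonin minus DMSO, x axis) of every tested probe set of the 12 genes with a called probe set; diamonds are brightest and circles other probe sets, and filled symbols are called. The 2 symbols of KDM6B farthest to the left rest wholly or partly on shikonin signals below the 40th percentile, and their place depends on the pseudocount. All probe sets of KDM7A, KDM5B, KMT2E and KDM6B lie left of 0, whereas those of SETDB2, KDM6A and DOT1L lie on both sides.

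Counted by probe set, 14 of 53 demethylase probe sets fell and 0 rose, while 8 of 77 methyltransferase probe sets fell and 3 rose. Over all 26381 single-gene probe sets tested, 6.01% were called lower and 3.94% higher. Probe sets of a gene share its transcript and are not independent of each other. Most of the 14 demethylase probe sets belonged to KDM6B, KDM5B, KDM7A and KDM2A. Among genes not called, KDM4C, KDM5A, JMJD1C, JMJD6, KMT2A, KMT2C, SETD2, SETD7, EZH1, NSD2 and NSD3 each had probe sets of both signs, and none of these passed.

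Other genes of the same machinery were read from lists of partners and related enzymes, on the brightest probe set of each. Their other probe sets were not examined, nor was each of their calls followed across the alternative fits. Of 110 listed genes, 99 were tested, of which 9 rose and 11 fell, beside 5.05% and 6.65% of all genes. The most calls came from the partners of KDM1A in corepressor complexes, where 5 of 10 fell and 0 rose (median -0.27). PHF21A, or BHC80, which reads unmethylated H3K4, had signals of 160 and 228 in the shikonin arrays, against 541 and 457 in the DMSO arrays. It was 2.52-fold lower (log2 change -1.33, SE 0.19, adjusted p 0.00321), with no overlap of arrays. GSE1, found in the same complex, fell by 0.69 on the log2 scale (adjusted p 0.00126) and the zinc finger protein ZMYM2 by 0.54 (adjusted p 0.00573). RCOR3 and HMG20B fell by 0.28 and 0.27, close to the threshold (adjusted p 0.0465 and 0.0467).

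Subunits of the COMPASS complexes, which hold the KMT2 and SETD1 enzymes, gave 1 call of 12. That was CXXC1, which binds CpG islands, at 0.36 (adjusted p 0.00999). Of 15 Polycomb subunits, 2 rose and 2 fell. EED, a core subunit of PRC2, rose by 0.39 (adjusted p 0.0242), whereas JARID2 and MTF2, which help PRC2 to find its targets, fell by 0.40 and 0.35 (adjusted p 0.0126 and 0.0129). CBX2, a Polycomb subunit that reads H3K27 methylation, rose by 0.36 (adjusted p 0.0447).

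Among 12 further lysine methyltransferases, those of H4K20 moved apart. KMT5A, which adds the first methyl group, was at 0.06 and did not pass (adjusted p 0.689). Of the enzymes that add further ones, KMT5B fell by 0.74 (adjusted p 0.00196) and KMT5C rose. KMT5C had signals of 159 and 214 in the shikonin arrays, against 66.7 and 57.7 in the DMSO arrays, 2.70-fold higher (log2 change 1.43, SE 0.27, adjusted p 0.0124). Of 9 further JmjC genes none was called (2 had an unadjusted p under 0.05), 7 were above 0, and the median was 0.09. Of 10 readers and partners of H3K9 methylation CDYL fell by 0.42.

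Arginine methyltransferases and their cofactors gave 4 calls of 10, all upward, with a median of 0.14. Of all genes 5.05% were called higher, and 10.7% of those in the brightest class, which held 6 of these 10. PRMT6 rose by 0.42 (adjusted p 0.0139), PRMT7 by 0.49 (adjusted p 0.0430) and PRMT5, the main enzyme of symmetric dimethylation, by 0.27 (adjusted p 0.0344). WDR77, the partner of PRMT5, also passed, at 0.25 (adjusted p 0.0492). Of 21 histone acetylation enzymes, KAT2A rose by 0.49, and SIRT1 and KAT6B fell by 0.69 and 0.45 (adjusted p 0.0154, 0.00290 and 0.0171 in that order).

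**Figure D4:**
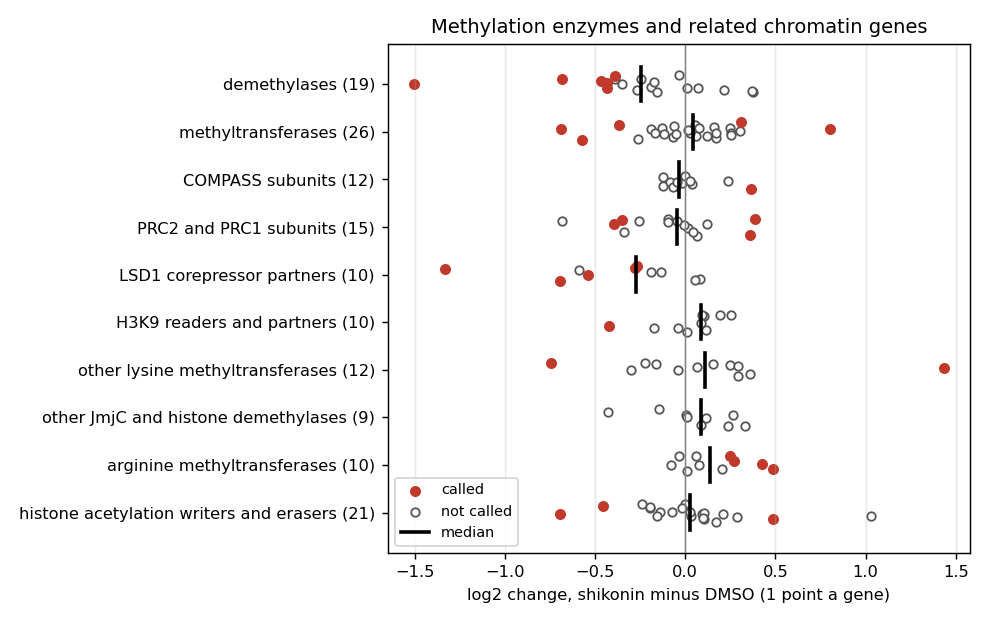
Log2 change (shikonin minus DMSO, x axis) of the demethylases, the methyltransferases and 8 related lists, with the number of tested genes in brackets; each point is a gene, filled points are called and black bars are medians. The medians of the demethylases (-0.25) and of the KDM1A corepressor partners (-0.27) lie farthest to the left.

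Over all probe sets the median signal was 61.0 and 63.7 in the shikonin arrays, against 60.5 and 62.2 in the DMSO arrays. Of 14 markers of monocytic cells, 11 exceeded the 40th percentile on all 4 arrays, among them CEBPA, ELANE and LYZ; CD14 and FCGR1A were below it on all 4, and CD33 was not analysed here. Summed signals of these markers were 67963 and 72665 after shikonin and 71380 and 75281 in DMSO. Of 4 markers of T cells, none exceeded that level on all arrays. Of 3 measured markers of B cells CD79A and PAX5 did, as did HBB of 2 erythroid and COL1A1 of 3 fibroblast markers, and neither of 2 epithelial markers did. As these are bulk samples, less RNA per cell and fewer cells of a kind cannot be told apart.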

How the data were processed

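Biotin-labelled cRNA made from total RNA by a 3' amplification kit was hybridized to Affymetrix arrays, per the labels' protocols. The deposited values are linear probe set intensities; the sources used here do not name the software that summarised probes. With the lowest and highest 2% of probe sets removed, the mean was 500.1 on every array, so changes are relative to the rest of the array. Depth has no counterpart here, and the number of arrays limits precision.

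Intensities were taken as log2(signal + 9.94), the pseudocount being the 20th percentile. Folds are on this scale and understate changes of dim genes. Control probe sets and the 40% with the lowest mean log2 signal were left out, which kept 32768 of 54675. Shikonin was set against DMSO with limma 3.58.1 in R 4.3.3 (lmFit, eBayes with trend, two-sided), and p-values were adjusted by Benjamini-Hochberg across the whole set of tested probe sets. The procedure was run on simulated arrays whose variance followed a smooth curve on mean signal. The trend setting assumes this form, so that run does not bear on the choice of variance prior. Members, lists and tests were chosen with earlier results of these data known. Arrays are given in full for called members and for the 3 uncalled ones of each class with the largest change. Those of KDM2A and KDM5A are given too, outside that rule. In each list the called genes with the smallest p are named (up to 3). Members whose probe sets disagree are also named. SETD1B and EZH2, and further called genes of the lists, were added after their values were seen. Genes came from the platform annotation; all 46 symbols are in RefSeq's table of GRCh38.p14, used for names, neighbours and promoter windows. Alternatives are given under the closing section.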

Additional observations from a re-analysis of the deposited data

How the results depend on the processing

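With a single variance prior, the genes of the list called higher and lower were 0 and 0, and so were the other chromatin genes; limma then called 0 of all 13554 genes. Without a filter on dim probe sets, 5 genes of the list were called lower and 3 other chromatin genes higher. Calls over all genes dropped too, to 350 higher and 607 lower in place of 685 and 901. Without probe sets ending in _x_at or _s_at, which removed 8 genes of the list, 1 was called higher and 5 lower. Of the other chromatin genes 5 were called higher and 5 lower, and of all genes 470 higher and 657 lower. With the mean over probe sets, 1 gene of the list was called higher, PHF8 in place of NSD1 and SETD5, and the demethylase median was -0.14. Over all genes that setting called 580 higher and 762 lower. With quantile normalization the demethylase median was -0.21. KDM6A reversed, without passing, on the mean over probe sets (0.0493) and without _x_at and _s_at probe sets (0.79), when a dim probe set stood for it. Both pseudocounts tried gave the same 2 and 9 calls.

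Leaving out each array in turn, genes of the list called higher numbered 0 to 3 and lower 5 to 6, other chromatin genes higher 2 to 6 and lower 5 to 9. For the list, these counts include genes not called with all arrays. The demethylase median ran from -0.29 to -0.21 and the methyltransferase median from -0.0229 to 0.0534. With the replicate number as a block, 4 genes of the list were called higher and 11 lower, while calls over all genes went up as well, to 1234 higher and 1324 lower. Same-numbered arrays share only a number: their deviations from the group means correlated at 0.02, so the numbers were not taken as pairs. Signals under about the 40th percentile of an array were not shown to exceed background.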
